A study of Mus musculus with 31 samples.

Results

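Toll-like receptors are the pattern recognition receptors with which innate immune cells sense microbial products and molecules released from damaged tissue. The 10 genes described here are the receptors Tlr1, Tlr2, Tlr3, Tlr4, Tlr6, Tlr7, Tlr8, Tlr9 and Tlr13 and the coreceptor gene Cd14. They were taken by gene symbol, whatever their level, from the 22609 symbols of the count tables, and all 10 were counted in at least 1 mouse of every group.

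Bulk RNA-seq was done on the left masseter muscle (MM), a jaw-closing muscle, of 31 male C57BL/6J mice, with 1 poly(A) library per mouse. Complete Freund's adjuvant (CFA), an oil emulsion with killed mycobacteria, was injected into MM of 6 mice, of which 3 were sampled at 1d and 3 at 5d, and 3 vehicle mice of that experiment (CFA vehicle) received PBS. Collagenase (Col), an enzyme that digests collagen, was given at 0.2U to 8 mice, in groups of 4 that the labels call 1C and RPC, and at 10U to 11 mice, and 3 vehicle mice of that experiment (Col vehicle) received PBS. The mice given 10U fall into early Col (10U, n = 4), which the labels put at 2 days and the paper at 1 day, 6d Col (10U, n = 3) and late Col (10U, n = 4), which the labels put at 12 days and the paper at a later day. The labels do not give the collection day of the 1C and RPC groups, and the day of the vehicle mice is not stated. Each group was compared with the vehicle group of its own experiment, so that comparisons within an experiment share their vehicle mice.

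Tlr1, Tlr2, Tlr4 and Tlr6 act at the cell surface. Tlr2 pairs with Tlr1 or with Tlr6 to bind bacterial lipoproteins, and Tlr4 binds lipopolysaccharide that Cd14 hands over. Tlr3, Tlr7, Tlr8, Tlr9 and Tlr13 act in endosomes and bind nucleic acids: Tlr3 double-stranded RNA, Tlr7 single-stranded RNA, Tlr9 unmethylated CpG DNA and Tlr13 bacterial ribosomal RNA. Most of these receptors signal through the adaptor Myd88 to NF-kB, while Tlr3 signals through Ticam1. Macrophages, dendritic cells and neutrophils are known for high expression of several of these genes.

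The promoters of 3 members are shown because their levels took different courses in these mice: Tlr1 rose most after 10U Col, Tlr9 was higher at 6d than in early Col (10U), and Tlr3 passed the test of edgeR in no comparison. Each is the window from 250 bases before to 50 bases after an annotated transcript start, taken from RefSeq with build GRCm38.p6. RefSeq has 2 such windows for Tlr1, and the one not shown (5:64932650-64932949) does not hold the PU.1 core. Capitals mark the letters GAGGAAGT, the core bound by the myeloid factor PU.1, in Tlr1, the same core read on the opposite strand in Tlr9, and GGGANTTTC, a core of NF-kB sites, in Tlr3.
Tlr1 (5:64933509-64933808, minus strand): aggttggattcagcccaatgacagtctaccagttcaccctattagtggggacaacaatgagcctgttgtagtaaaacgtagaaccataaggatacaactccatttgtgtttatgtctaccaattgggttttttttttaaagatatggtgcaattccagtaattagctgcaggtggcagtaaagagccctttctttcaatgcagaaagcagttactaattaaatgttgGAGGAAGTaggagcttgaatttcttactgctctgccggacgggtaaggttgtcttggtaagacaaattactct
Tlr9 (9:106222348-106222647, plus strand): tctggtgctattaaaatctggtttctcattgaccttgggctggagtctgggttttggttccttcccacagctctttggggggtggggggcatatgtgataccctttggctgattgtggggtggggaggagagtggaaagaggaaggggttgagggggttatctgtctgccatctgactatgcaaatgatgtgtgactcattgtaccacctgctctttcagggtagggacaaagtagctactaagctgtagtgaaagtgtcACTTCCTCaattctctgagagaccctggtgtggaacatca
Tlr3 (8:45410331-45410630, minus strand): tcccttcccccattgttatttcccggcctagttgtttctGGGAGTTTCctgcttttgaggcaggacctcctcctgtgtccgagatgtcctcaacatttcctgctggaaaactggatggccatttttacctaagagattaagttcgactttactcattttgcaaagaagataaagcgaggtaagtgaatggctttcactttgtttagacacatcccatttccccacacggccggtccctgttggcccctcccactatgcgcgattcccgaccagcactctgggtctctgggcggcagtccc
In Tlr1 the match began 23 bases before the transcript start, in Tlr9 it began at base 261 of the window, past the start, and in Tlr3 it began 211 bases before the start. Among the 9 windows of the 7 members that the table holds, 2 had the PU.1 core on either strand, against 3.202% of all 32851 promoters. An interferon response motif, GAAANNGAA, was found in 2 of the 9 windows, those of Tlr6 and Tlr8, against 8.56% of all, and the NF-kB core in 1 of the 9, against 1.111% of all. These motifs do not overlap each other in the windows shown. Tlr2, Tlr6, Tlr8 and Tlr13, which also rose at 6d Col (10U), had no PU.1 core in their windows, and Tlr2 and Tlr13 held none of the 3 motifs. A match describes the letters of a window and no binding was measured.

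Depth, as the sum of reads assigned to genes, was 14843778 in the shallowest and 29076671 in the deepest library (median 20834472), and 10 counts correspond to 0.344 to 0.674 CPM, counts scaled to library size. The summed CPM of 7 skeletal muscle markers was 27279 or more in every library. Markers of salivary gland, a tissue next to MM, summed to 0.687 CPM in 1 of the 6d Col (10U) mice and to 175504 CPM in 1 RPC mouse. Reads that fell on more than 1 gene were 0.680% to 0.883% of the reads on genes in the 11 libraries of 10U Col and 0.147% to 0.318% in the other 20. Counting of the 10U libraries and the 10U treatment therefore cannot be told apart in comparisons with Col vehicle, whereas comparisons among the 10U groups are free of that difference. In the GENCODE annotation of build mm9, members overlap no other gene, and none lies on the opposite strand within 5000 bp of them. Tlr1 (chromosome 5, 65316050 to 65324000) and Tlr6 (chromosome 5, 65344345 to 65351287) lie side by side and share 17.4% and 17.8% of their windows of 50 bases, so that their counts are uncertain by the reads from those windows. The other 8 members share no such window with another gene.

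In vehicle mice the members fell into a higher and a lower set. Per length, as CPM per kilobase of exon (RPKM), Cd14 (2.18 ± 0.176, SD, n = 3), Tlr4 (2.05 ± 0.861), Tlr3 (1.66 ± 0.511) and Tlr2 (1.44 ± 0.727) led in Col vehicle, and neighbours in that order did not differ beyond their spread. The other 6 lay between 0.501 ± 0.467 RPKM (Tlr13) and 0.198 ± 0.0641 RPKM (Tlr1). CFA vehicle mice had the same 4 genes on top, with Tlr4 first at 3.37 ± 1.39 RPKM and Tlr1 last at 0.156 ± 0.0654 RPKM. At 6d Col (10U) the order was different, with Cd14 (7.92 ± 2.02 RPKM), Tlr2 (5.87 ± 1.48) and Tlr13 (5.49 ± 2.17) ahead of Tlr4 (4.46 ± 1.58), and Tlr6 last at 1.36 ± 0.348 RPKM. The steps from Tlr2 down to Tlr7 (4.13 ± 1.36 RPKM) were each smaller than the SDs. Between the vehicle groups themselves, edgeR called 0 of the 9 members with enough counts to be tested, and 0 of them had an unadjusted p under 0.05. Of all 14070 genes tested there, 0.0426% were called higher and 0 lower, so few calls were to be found in any set. The members' log2 fold changes, Col vehicle over CFA vehicle, ranged from -0.69 ± 0.41 (SE, Tlr4) to 0.59 ± 1.28 (Tlr8). Vehicle mouse 3 of each experiment had the highest level of several members. Tlr8 was at 0.161, 0.319 and 1.99 CPM in the 3 CFA vehicle mice and at 0.610, 0.0665 and 3.0 CPM in the 3 Col vehicle mice. The same vehicle mice 3 had the highest summed neutrophil markers of their groups, 535 and 853 CPM, against 3.59 to 267 CPM in the other 4. They also had the highest sums of marrow granule (562 and 923 CPM), bone (131 and 146 CPM) and B cell markers (19.9 and 14.2 CPM). Macrophage markers were highest in them too (260 and 281 CPM). The part of these cells and tissues in the receptor levels was not tested.

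**Figure D1:**
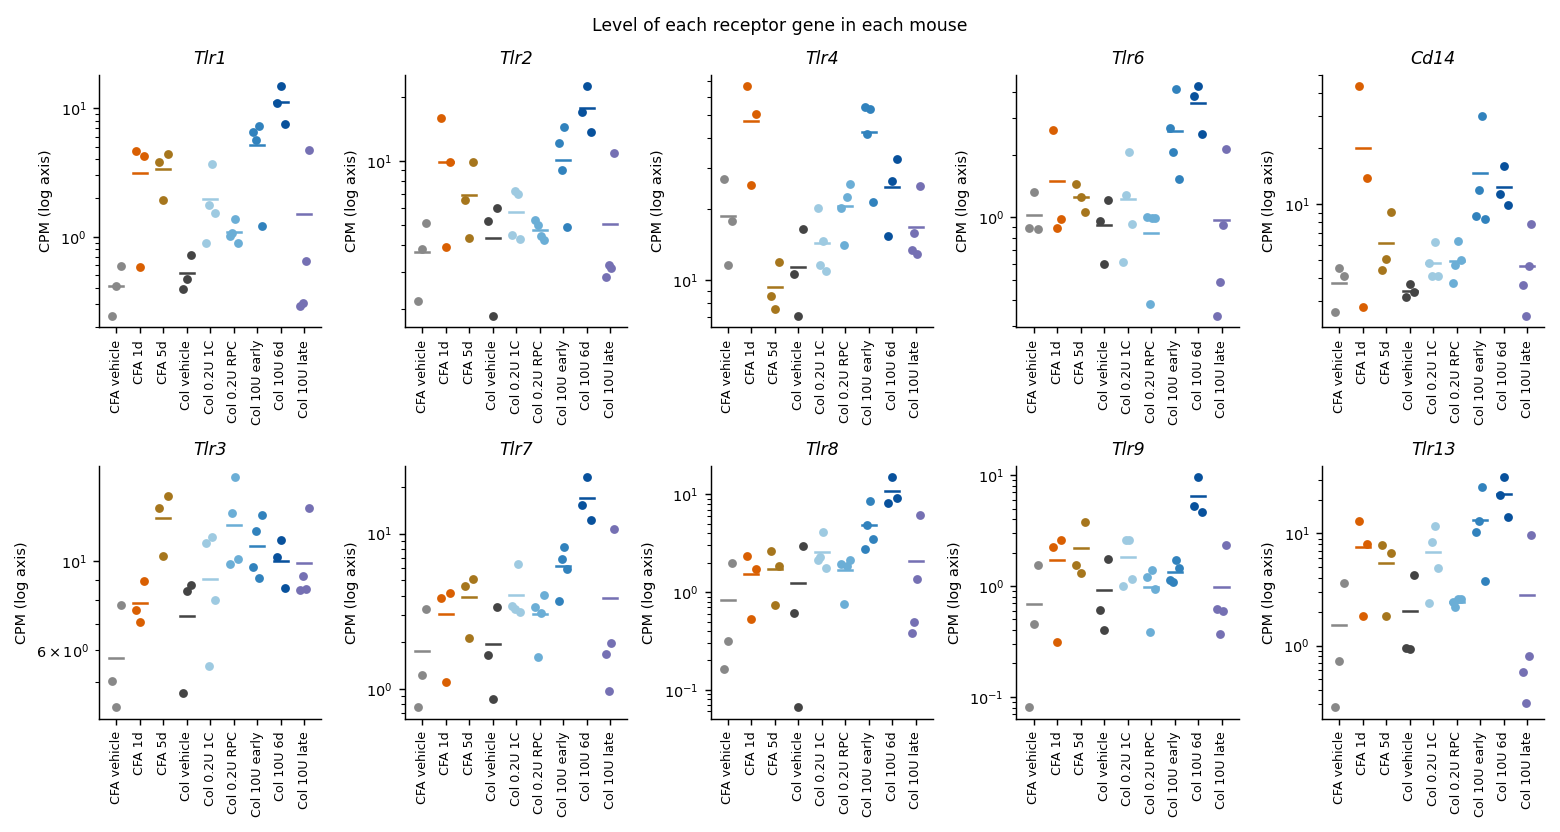
Level of each of the 10 genes in CPM (vertical log axis) in the 31 mice, with 1 point per mouse, grouped along the horizontal axis, and a line at each group's mean; the top row holds the surface receptors and Cd14 and the bottom row the endosomal receptors. In 8 genes, all but Tlr3 and Tlr4, the 3 mice of 6d Col (10U) lie above the 3 Col vehicle mice, and in most panels 1 late Col (10U) mouse lies above the other 3.

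At 1d post-CFA the levels of all 10 members were above the vehicle group on average, by log2 fold changes of 0.45 (Tlr3) to 2.90 (Tlr1), with a median of 1.30, where that of all 13944 tested genes was -0.01. None of them passed the test of edgeR: 0 of the 10 were called, where 0% of all genes were called higher and 0 genes lower, and 588 genes had an unadjusted p under 0.05. DESeq2 also called 0 of the 10, with 46 genes higher and 10 lower. Of the members, 4 had an unadjusted p under 0.05.

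Mice at 1d post-CFA differed from each other. Tlr4 was at 66.6, 25.3 and 50.5 CPM in the 3 mice and at 26.9, 11.6 and 17.7 CPM in the vehicle mice. Mice 1 and 3 were thus above all vehicle mice, and mouse 2 was below the highest vehicle mouse (log2 fold change 1.33 ± 0.41, SE, adjusted p = 0.924). Tlr1 was at 4.66, 0.578 and 4.24 CPM, against 0.242, 0.410 and 0.589 CPM (log2 fold change 2.90 ± 0.80, adjusted p = 0.924). Tlr13 was at 12.8, 1.82 and 7.99 CPM, against 0.283, 0.730 and 3.61 CPM (log2 fold change 2.23 ± 1.01, adjusted p = 0.924). Cd14, which serves Tlr4 and other receptors, reached 43.4 CPM in mouse 1, while mice 2 and 3 had 2.80 and 13.9 CPM and the vehicle mice 2.62 to 4.56 CPM. In each of these genes mouse 2 overlapped the vehicle mice, and so did it in Tlr2, at 3.91 CPM against 15.9 and 9.82 CPM in mice 1 and 3. With mouse 2 of 1d post-CFA and vehicle mouse 3 left out together, a choice made after the data were seen, edgeR called 3 of the 8 members then tested, Tlr13, Tlr2 and Cd14. With a single mouse left out, the count stayed at 0 in each of the 6 fits. Here and below, the shares of all genes called with mice left out are not reported. Those counts cannot be set against the share in the fit with all mice.

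At 5d post-CFA Tlr1 rose 8.26-fold, and Tlr4 was the only member with a mean below the vehicle group. Tlr1 was at 3.79, 1.93 and 4.39 CPM in the 3 mice, each above all 3 vehicle mice (log2 fold change 3.05 ± 0.51, adjusted p = 0.0482 with edgeR). It was the 1 member called of 10, where 1.06% of all genes were called higher. Tlr3, the double-stranded RNA receptor, was at 13.6, 10.3 and 14.6 CPM against 5.05, 4.33 and 7.80 CPM, so that the groups were also apart (log2 fold change 1.20 ± 0.30, adjusted p = 0.117 with edgeR and 0.0144 with DESeq2). Groups were apart with the treated mice higher in 2 of the 10 members, Tlr1 and Tlr3, and in 12.8% of all genes. Tlr7, Tlr9 and Tlr13 had log2 fold changes of 1.19 ± 0.61, 1.68 ± 0.91 and 1.83 ± 0.94, and vehicle mouse 3 lay within the treated range in each. Tlr2 (0.93 ± 0.43), Tlr8 (1.08 ± 0.92) and Cd14 (0.77 ± 0.37) were not called either, with 6.51, 4.33 and 9.83 CPM of Tlr2 against 2.18, 3.83 and 5.12 CPM in vehicle. The call of Tlr1 rested on 5 of the 6 mice: without any 1 of vehicle mice 1 and 2 or of the 3 treated mice no member was called (adjusted p of Tlr1 0.133 to 0.180). Without vehicle mouse 3 edgeR called 6, namely Tlr1 (adjusted p = 0.00251), Tlr3, Tlr7, Tlr8, Tlr9 and Tlr13. The 1.06% above holds for the fit with all mice and not for these refits. The call was also lost with 1 fit over all 31 libraries, with both vehicle groups as reference and with DESeq2's size factors, which each gave 0. Salivary gland markers summed to 84993 to 124105 CPM in the CFA 5d mice and to 23.2, 44.6 and 8871 CPM in the CFA vehicle mice, and their part in these results was not tested.

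Tlr4, the lipopolysaccharide receptor, went from its highest to its lowest mean of all 9 groups between the 2 times after CFA. Its level was 8.52, 7.56 and 11.9 CPM at 5d, below each of the 3 mice at 1d (log2 fold change -2.30 ± 0.36 for 5d against 1d, adjusted p = 0.0118). Against vehicle the log2 fold change at 5d was -0.96 ± 0.34 (adjusted p = 0.259), and 1 vehicle mouse, at 11.6 CPM, was within the range of the treated mice. Comparing 5d with 1d was decided on after the values were seen. In it, 0.990% of all genes were called lower, Tlr4 was the only member called, and it was also the only member whose groups were apart with 5d lower, as were 12.1% of all genes. Without mouse 1 or mouse 2 at 5d the adjusted p of Tlr4 was 0.0848 and 0.0741, and without mouse 2 at 1d Cd14 was called lower as well. Tlr3 was higher in all 3 mice at 5d than in all 3 at 1d (log2 fold change 0.75 ± 0.23, adjusted p = 0.118), and Cd14 had a log2 fold change of -1.63 ± 0.81 (adjusted p = 0.321). Tlr1, at 0.578 to 4.66 CPM at 1d and 1.93 to 4.39 CPM at 5d, overlapped. The summed salivary gland markers were 5604, 18.7 and 45.8 CPM at 1d, against the 84993 CPM or more at 5d, and their part in these differences was not tested.

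After 0.2U Col no member was called, although Tlr1 and Tlr13 had fitted levels 3.74-fold and 3.32-fold those of vehicle in 1C. Median log2 fold changes of the 10 members were 0.75 in the 1C group and 0.48 in the RPC group, and edgeR called 0 of 10 in either, where 0% of all genes were called higher. At an unadjusted p under 0.05 there were 1819 genes in 1C, 2 of them members, and 1923 in RPC, 3 of them members, and DESeq2 called 0 members in either, with no adjusted p for 6 of them in RPC. In 1C, Tlr1 was at 0.890, 1.76, 3.72 and 1.54 CPM, above all 3 Col vehicle mice (0.392, 0.466 and 0.716 CPM), with a log2 fold change of 1.90 ± 0.57 (adjusted p = 0.279). Tlr13 in 1C ranged from 2.39 to 11.7 CPM (log2 fold change 1.73 ± 0.73, adjusted p = 0.390), and vehicle mouse 3, at 4.25 CPM, was within that range. The 1C group was apart from vehicle and higher in 2 members, Tlr1 and Cd14, and in 4.22% of all genes. The RPC group was apart and higher in 3 members, Tlr1, Tlr3 and Cd14, and in 4.79% of all genes. Tlr3 in RPC was at 9.86, 13.2, 16.2 and 10.1 CPM against 4.71, 8.45 and 8.73 CPM (log2 fold change 0.77 ± 0.29, adjusted p = 0.336). Salivary gland markers summed to 16789 to 175504 CPM in the RPC mice and to 24.8, 110407 and 25663 CPM in Col vehicle mice 1 to 3. Their part in these levels was not tested. The log2 fold changes of Tlr4 were 0.34 ± 0.34 in 1C and 0.85 ± 0.33 in RPC. Single vehicle mice moved the medians: in RPC the median was 0.08 without vehicle mouse 2, with 5 of 10 members above 0, and 1.13 without vehicle mouse 3, and in 1C it was 1.20 without vehicle mouse 3. No single mouse left out gave a call.

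In early Col (10U) every member was above the vehicle group on average, and the median of their log2 fold changes was 1.72, that of all 14373 genes 0.02. Tlr1 was at 6.58, 5.70, 7.25 and 1.22 CPM, a 9.42-fold higher fitted level than in vehicle (log2 fold change 3.24 ± 0.67, adjusted p = 0.0501). Tlr4 was at 54.1, 41.7, 53.4 and 21.5 CPM against 10.6, 7.05 and 16.5 CPM (log2 fold change 1.85 ± 0.41, adjusted p = 0.0540). Tlr7 was at 3.67, 6.84, 8.18 and 5.96 CPM against 1.66, 0.865 and 3.36 CPM (log2 fold change 1.59 ± 0.52, adjusted p = 0.0875). Mouse 4 was the lowest in Tlr1 and Tlr4 and still above all vehicle mice in both. Cd14 was at 8.63, 12.0, 29.9 and 8.36 CPM against 3.18 to 3.72 CPM (log2 fold change 2.07 ± 0.50, adjusted p = 0.0578). Tlr6 was at 2.70, 2.05, 4.14 and 1.53 CPM against 0.959, 0.599 and 1.21 CPM, again with the groups apart (log2 fold change 1.43 ± 0.49, adjusted p = 0.0924). Tlr13, Tlr2 and Tlr8 overlapped the vehicle mice. Tlr13 was at 10.2, 12.9, 26.1 and 3.77 CPM, so that mouse 4 was below vehicle mouse 3 at 4.25 CPM (log2 fold change 2.62 ± 0.81, adjusted p = 0.0790). Tlr2 was at 12.1, 9.06, 14.4 and 4.90 CPM, with mouse 4 below vehicle mice 1 and 3 (log2 fold change 1.16 ± 0.51, adjusted p = 0.153). Tlr8 was at 2.75, 4.84, 8.54 and 3.53 CPM, with mouse 1 below vehicle mouse 3 (log2 fold change 1.91 ± 0.95, adjusted p = 0.196). The smallest log2 fold changes were those of Tlr3 (0.55 ± 0.28) and Tlr9 (0.49 ± 0.57). Salivary gland markers summed to 31.2 to 70024 CPM in the early mice and to 24.8 to 110407 CPM in vehicle. Their part in these changes was not tested.

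By the adjusted p of edgeR 0 of these 10 were called in early Col (10U), where 1.14% of all genes were called higher and 4781 genes had an unadjusted p under 0.05, 6 of them members. Groups were apart and higher in 6 members, Tlr1, Tlr3, Tlr4, Tlr6, Tlr7 and Cd14, and in 13.4% of all genes. DESeq2 called 6 members (Tlr1, Tlr4, Tlr6, Tlr7, Tlr13 and Cd14), with an adjusted p of 0.000412 for Tlr4. The 1.14% holds for edgeR with all mice. Shares of all genes called by DESeq2 and in the refits that follow are not reported here, so these counts cannot be set against it. Without mouse 4 edgeR called 5 (Tlr1, Tlr4, Tlr6, Tlr13 and Cd14), without Col vehicle mouse 3 it called Tlr4 alone, and without both, a choice made after the data were seen, it called 8.

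At 6d Col (10U) 8 of the 10 members rose, the surface receptors Tlr1, Tlr2 and Tlr6, the coreceptor Cd14 and the endosomal receptors Tlr7, Tlr8, Tlr9 and Tlr13. The share called higher among all 14281 genes was 14.0%. The same 8 had groups that were apart, as did 26.0% of all genes with the treated mice higher. The median of the 10 log2 fold changes was 2.36, and that of all genes was 0.01.

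Tlr1 rose most. Its level was 11, 14.9 and 7.55 CPM, against 0.392, 0.466 and 0.716 CPM in vehicle, a 20.5-fold change (log2 fold change 4.36 ± 0.40, adjusted p = 0.00161). Its partner Tlr2 was at 16.9, 22.5 and 13.6 CPM against 5.19, 1.86 and 6.00 CPM (log2 fold change 1.97 ± 0.43, adjusted p = 0.0178). Tlr6, the other partner of Tlr2, was at 3.82, 4.28 and 2.53 CPM against 0.599 to 1.21 CPM (log2 fold change 1.89 ± 0.40, adjusted p = 0.0164). Within the Tlr2 group of receptors, the fold of Tlr1 was thus the largest, from a vehicle level of 7 to 16 counts per mouse. Cd14 (mm9 chromosome 18, 36884728 to 36886390) was at 11.4, 16 and 9.91 CPM against 3.18, 3.72 and 3.36 CPM (log2 fold change 1.84 ± 0.25, adjusted p = 0.00468). Tlr4 was at 15.3, 26.3 and 32.7 CPM against 10.6, 7.05 and 16.5 CPM. Mouse 1 was below vehicle mouse 3, and Tlr4 was not called (log2 fold change 1.08 ± 0.39, adjusted p = 0.0702, and 0.0276 with DESeq2).

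Among the endosomal receptors, Tlr13 was at 21.8, 31.6 and 13.9 CPM, against 0.959, 0.931 and 4.25 CPM in vehicle, a 10.4-fold change (log2 fold change 3.38 ± 0.64, adjusted p = 0.0123). Tlr7 was at 15.4, 23.0 and 12.2 CPM against 1.66, 0.865 and 3.36 CPM (log2 fold change 3.04 ± 0.50, adjusted p = 0.00790). Tlr8, whose gene lies beside Tlr7 on the X chromosome, was at 8.21, 15 and 9.25 CPM against 0.610, 0.0665 and 3.0 CPM (log2 fold change 3.04 ± 0.89, adjusted p = 0.0412). The vehicle level of Tlr8 spanned 1 to 67 counts, and its error was the largest of the 10. Tlr9 was at 5.33, 9.58 and 4.65 CPM against 0.610, 0.399 and 1.75 CPM (log2 fold change 2.75 ± 0.59, adjusted p = 0.0170). Tlr3 was at 10.2, 11.3 and 8.59 CPM against 4.71, 8.45 and 8.73 CPM, with 1 treated mouse below the highest vehicle mouse (log2 fold change 0.44 ± 0.28, adjusted p = 0.265).

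How many of the 10 were called at 6d Col (10U) depended on single mice. The share of 14.0% given above holds for the fit with all mice. Without treated mouse 1 there were 4 (Tlr1, Tlr7, Tlr13 and Cd14), and without treated mouse 2 there were 3 (Tlr1, Tlr7 and Cd14). Without treated mouse 3 there were 7, without vehicle mouse 1 there were 6 and without vehicle mouse 3 there were 9, Tlr4 included. Tlr1, Tlr7 and Cd14 were called in all 6 of these fits, the one without vehicle mouse 2 included, which left the count at 8.

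**Figure D2:**
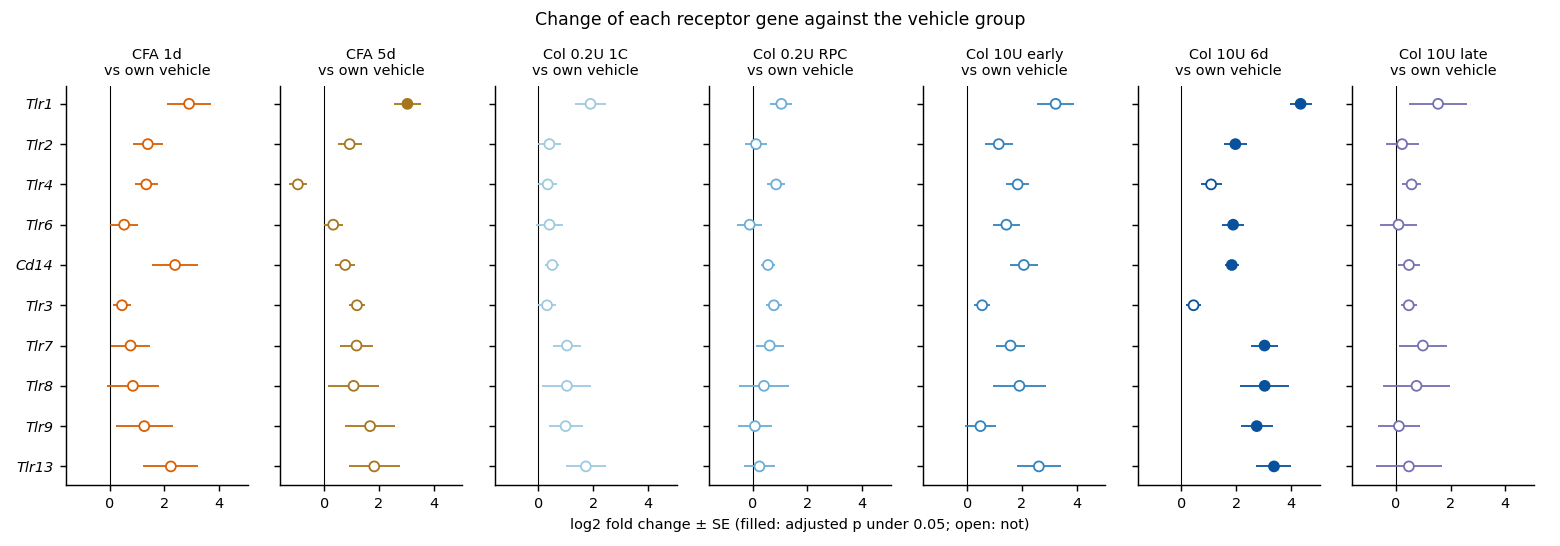
Log2 fold change of each gene (horizontal axis, bars are SE) against the vehicle group of its own experiment, with 1 panel for each of the 7 treated groups and 1 row per gene; filled points have an adjusted p under 0.05 with edgeR. Filled points are found for Tlr1 at 5d post-CFA and for 8 genes at 6d Col (10U), and Tlr4 at 5d post-CFA is the point farthest below 0, at -0.96.

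Between early and 6d Col (10U), Tlr9 and Tlr7 rose, while the means of Tlr4 and Cd14 were lower at 6d and neither was called. Tlr9, the CpG DNA receptor, was at 1.13, 1.08, 1.73 and 1.45 CPM in early Col (10U), within the range of the vehicle mice, and 4.84-fold higher at 6d (log2 fold change 2.28 ± 0.34, adjusted p = 0.0108). Tlr7 was 2.76-fold higher (log2 fold change 1.46 ± 0.32, adjusted p = 0.0337). These 2 members were called, where 4.68% of all genes were called higher. The 6d mice were apart from all early mice and higher in 3 members, Tlr1, Tlr7 and Tlr9, and in 11.6% of all genes. The log2 fold change was 1.13 ± 0.53 for Tlr1 and 1.15 ± 0.41 for Tlr8, neither of them called. It was -0.76 ± 0.37 for Tlr4 (adjusted p = 0.235) and -0.23 ± 0.47 for Cd14. The direction of Cd14 rested on early mouse 3, without which its log2 fold change was 0.42. Without 6d mouse 2 no member was called. Without 6d mouse 1 or 3, or early mouse 1 or 2, Tlr9 alone was called. Without early mouse 3, Tlr8 was called as well, and without early mouse 4 Tlr1 was called higher and Tlr4 lower. The 4.68% holds for the fit with all mice. Salivary gland markers summed to 31.2 to 70024 CPM in early Col (10U) and to 0.687 to 2.28 CPM at 6d. Their part in these differences was not tested.

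In late Col (10U) mice 1 to 3 were within or below the range of the vehicle mice in every member, other than mouse 2 in Tlr3 and mouse 3 in Cd14, and mouse 4 was above that range in all 10. Tlr13 was at 0.577, 0.306, 0.808 and 9.59 CPM, against 0.931 to 4.25 CPM in vehicle, and Tlr1 was at 0.289, 0.306, 0.646 and 4.75 CPM. Against vehicle, edgeR called 0 of 10 members, where 0.762% of all genes were called higher and 2461 genes but 0 members had an unadjusted p under 0.05, and DESeq2 also called 0, with no adjusted p for Tlr1 and Tlr13. The median log2 fold change of the 10 was 0.48, and without mouse 4 it was -0.51. Tlr13 turned from 0.48 ± 1.20 to -1.86 on the log2 scale without that mouse. Tlr4 and Tlr3 had log2 fold changes of 0.58 ± 0.36 and 0.47 ± 0.30.

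From 6d to late Col (10U), 5 members fell, Tlr1, Tlr2, Tlr6, Tlr9 and Cd14, where 13.0% of all genes were called lower. The log2 fold changes were -2.85 ± 0.88 for Tlr1 (adjusted p = 0.0483), -1.79 ± 0.48 for Tlr2 (0.0334), -1.83 ± 0.56 for Tlr6 (0.0476), -2.67 ± 0.59 for Tlr9 (0.0208) and -1.39 ± 0.36 for Cd14 (0.0302). Tlr13, Tlr7 and Tlr8 had log2 fold changes of -2.95 ± 1.01, -2.10 ± 0.74 and -2.34 ± 0.83 and were not called. In these 8 members the groups were apart, as in 18.7% of all genes with the late mice lower. Tlr4 (-0.55 ± 0.31) and Tlr3 (0.00 ± 0.20) were not apart. Without late mouse 4, edgeR called 9 members lower, all but Tlr3. Without any 1 of late mice 1, 2 and 3 or of 6d mice 1 and 2 it called 0, and without 6d mouse 3 it called Tlr9 alone. The 13.0% holds for the fit with all mice.

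The early responses to the 2 agents were compared as a difference of their changes from vehicle. No member was called (0.0946% of all genes were called in either direction), 0 members had an unadjusted p under 0.05, and DESeq2 called 0. The difference, early Col (10U) minus CFA 1d, was 0.51 ± 0.62 for Tlr4, 0.80 ± 0.89 for Tlr7 and 0.91 ± 0.72 for Tlr6 on the log2 scale, errors too wide to tell like from unlike changes. At the later times, 6d for Col and 5d for CFA, a comparison chosen after the values were seen, Tlr4 differed: its change from vehicle was 1.08 ± 0.39 after 10U Col and -0.96 ± 0.34 after CFA, a difference of 2.04 ± 0.56 (adjusted p = 0.0397). It was the 1 member called, where 11.3% of all genes were called. Days and doses differ between the agents, and so does the counting of the libraries given above. Salivary gland markers summed to 0.687 to 2.28 CPM at 6d Col (10U) and to 84993 to 124105 CPM at CFA 5d. Their part in this difference was not tested. Leaving out 1 mouse ended the call of Tlr4 in 8 of 12 fits, those without any CFA 5d mouse, CFA vehicle mouse 1, Col vehicle mice 1 and 2 or 6d mice 2 and 3, with adjusted p of 0.0517 to 0.0899. Tlr6 had a difference of 1.55 ± 0.50 (adjusted p = 0.0683), Cd14 of 1.06 ± 0.45 and Tlr3 of -0.77 ± 0.42.

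**Figure D3:**
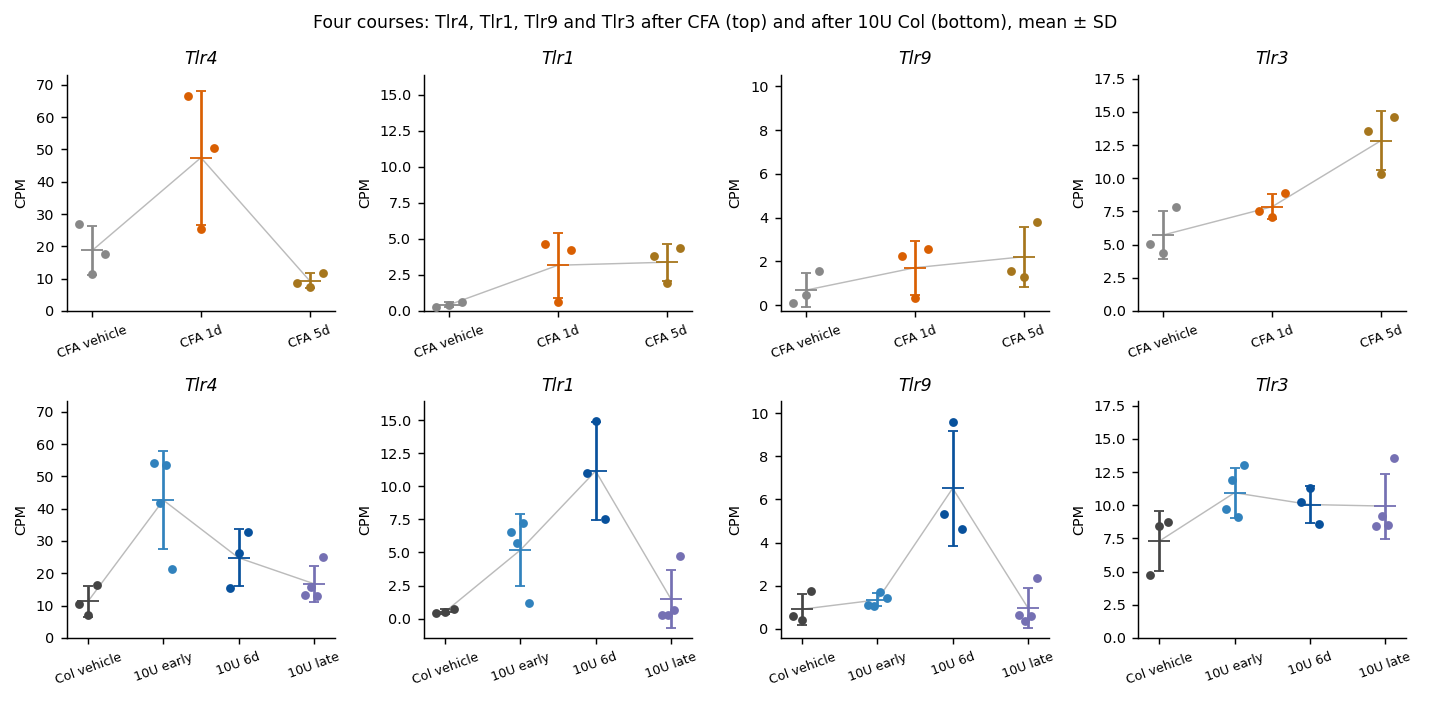
Levels of Tlr4, Tlr1, Tlr9 and Tlr3 in CPM (vertical axis, linear) by group, after CFA in the top row and after 10U Col in the bottom row; points are mice, horizontal marks group means, bars SD, and grey lines join means. Tlr4 peaks at CFA 1d and in early Col (10U), Tlr1 and Tlr9 peak at 6d Col (10U), and Tlr3 stays between 4.33 and 14.6 CPM in these mice.

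Among themselves, the members moved together from mouse to mouse within groups to different degrees. After each group's mean was subtracted from log2 CPM, Pearson's r over the 31 libraries was between 0.0158 and 0.917 for the 45 pairs of members, with a median of 0.642. Tlr7 with Tlr8 was the closest pair. Tlr3 and Tlr4 stood outside, with median r of 0.348 and 0.474 with the other 9, whereas Tlr13 had a median of 0.824. Of all 13949 genes with at least 10 counts in enough libraries, those closest to Tlr13 were Mpeg1 (r = 0.965), Fcer1g and Laptm5, and those closest to Tlr7 were Ms4a6c (0.943), Ms4a6b and Rassf4. Tlr2 was closest to Lilrb3 (0.950), Tlr8 to Dock2 (0.943), Tlr9 to Tifab (0.920), Tlr6 to Fam38a (0.861) and Cd14 to Myd88 (0.848). Tlr3 was closest to Trim2 (0.922), Rab27b and Dstn, and Tlr4 to 2810474O19Rik (0.884), Sec23ip and Abhd2. The libraries share depth, tissue composition and a common scaling, and these values are descriptions.

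Markers of macrophages rose at 6d Col (10U), where 8 members rose, but not every member followed them. The summed CPM of 10 macrophage markers (among them Csf1r, Adgre1 as Emr1, Mrc1 and C1qa) was 1315, 1915 and 956 in the 6d Col (10U) mice and 223, 121 and 281 in the Col vehicle mice. All 10 macrophage markers rose at 6d, and the median of their log2 fold changes was 2.80. In early Col (10U) the sum was 536, 697, 1052 and 384 CPM and 1 of the 10, Fcgr1, rose. In late Col (10U) it was 134, 115 and 206 CPM in mice 1 to 3 and 775 CPM in mouse 4, the mouse in which the receptors were high. Mouse 2 at 1d post-CFA had the lowest sum of its group, 192 CPM against 483 and 314 CPM. At 5d post-CFA the sum was 419, 249 and 452 CPM, against 84.1, 198 and 260 CPM in vehicle, while Tlr4 was at its lowest mean. From early to 6d Col (10U) the range of the sum moved from 384 to 1052 CPM to 956 to 1915 CPM, and neither Tlr4 nor Cd14 was called. Conventional dendritic cell markers rose at 6d in 3 of 4 (Itgax, Flt3 and Xcr1). In bulk tissue, more cells of a type and more RNA per cell cannot be told apart, and the part of these cells in the receptor levels was not tested.

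Neutrophil markers, summed over 6 genes, were at 26.1, 33.3 and 21.5 CPM at 6d Col (10U), where 8 members rose, and in Col vehicle at 267, 9.05 and 853 CPM. In late Col (10U) they were highest in mouse 4, in which the receptors were high, at 215 CPM against 40.0 to 77.2 CPM in the other 3. Early Col (10U) mouse 3 had 330 CPM against 102 to 216 CPM, with several receptors high, as in vehicle mice 3 given above. At 1d post-CFA mouse 3 had the highest sum, 386 CPM, but only Tlr3, Tlr7 and Tlr9 were highest in it, and the other members in mouse 1. In 1C mouse 2 had the highest sum, 963 CPM, and the highest Tlr2 and Tlr9. Mouse 3 of 1C had the lowest sum, 223 CPM, and the highest level of every other member but Tlr4. S100a8 and S100a9 fell at 6d against vehicle, as did all 5 tested of the 7 marrow granule markers (Mpo, Prtn3, Camp, Ngp and Ltf). The marrow granule markers summed to 184, 8.98 and 923 CPM in the Col vehicle mice. The lowest vehicle level of S100a8, 1.80 CPM, was below the 2.53 to 6.10 CPM of the 6d mice. Bone markers fell in 3 of 6 (Bglap, Bglap2 and Dmp1), salivary gland markers in the 3 tested and muscle markers in 2 of 7 (Ckm and Myh4). The summed muscle markers were 27460 to 49868 CPM at 6d against 88138 to 125637 CPM in vehicle. B cell markers stayed at 1.49 to 1.59 CPM at 6d, below 2 of the 3 vehicle mice, T cell markers were at 0.859 CPM or less with no gene tested, and the 1 B cell marker tested was not called. The part of these other tissues in the receptor levels was not tested. Endothelial and fibroblast lists had 0 of 4 genes each called at 6d.

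**Figure D4:**
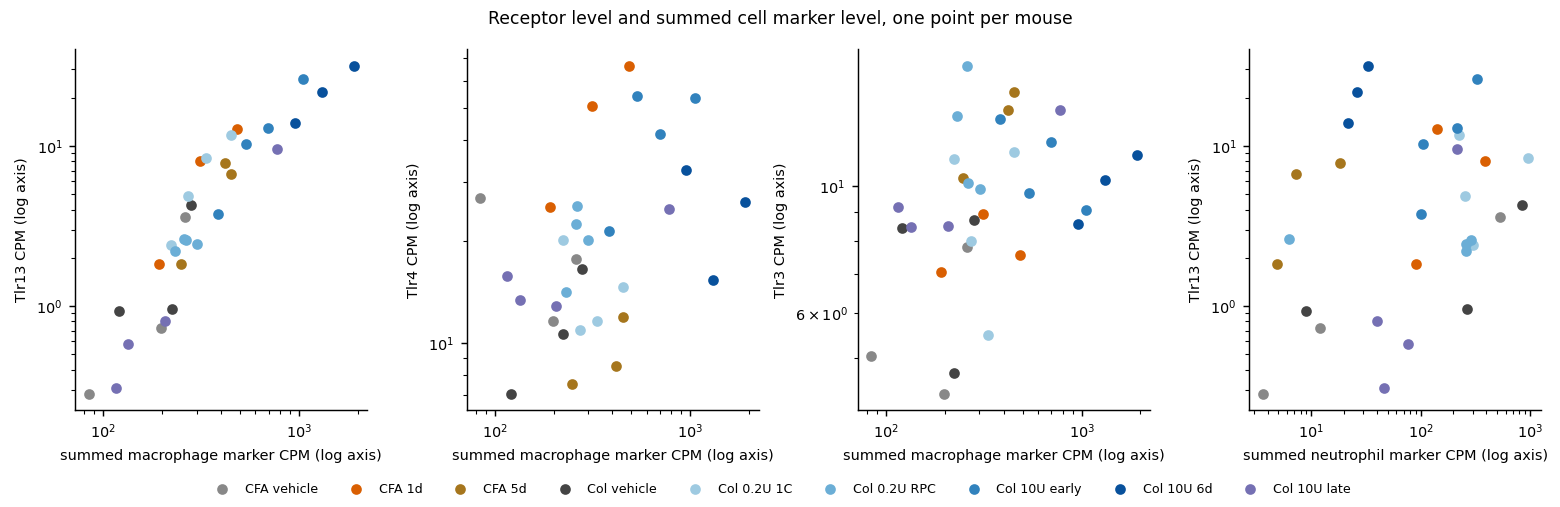
Level of a receptor gene (vertical log axis, CPM) against the summed level of cell markers (horizontal log axis, CPM), 1 point per mouse and 1 colour per group, for Tlr13, Tlr4 and Tlr3 against macrophage markers and Tlr13 against neutrophil markers. Mice with more macrophage marker RNA had more Tlr13, up to 31.6 CPM at 1915 CPM of markers, while the points of Tlr4 and Tlr3, and of Tlr13 against neutrophil markers, are scattered.

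Of 57 listed genes that bring ligands to these receptors, carry their signal, restrain it or are induced by it, 53 were tested at 6d Col (10U), 17 rose and 7 fell, where 14.0% of all genes were called higher and 13.3% lower. Of the other mouse receptors of the family, Tlr5, Tlr11 and Tlr12, none was called against vehicle. Tlr12 was called between CFA 5d and 1d, with a log2 fold change of 4.24 ± 0.67 (adjusted p = 0.0118). That comparison was chosen after the values were seen, and 4.85% of all genes were called higher in it. The level was low: Tlr5, Tlr11 and Tlr12 together summed to 0.803 to 1.84 CPM at 1d and 2.19 to 2.85 CPM at 5d. The part of the salivary gland markers, which differed between these groups as given above, was not tested.

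Among coreceptors, Cd180 and its partner Ly86, a receptor complex that tunes responses to lipopolysaccharide, rose at 6d by log2 fold changes of 3.40 ± 0.49 and 3.24 ± 0.40. Lbp, the plasma carrier of lipopolysaccharide, fell by 1.07 on the log2 scale, from 20.4 ± 1.37 to 9.85 ± 1.56 CPM (SD, n = 3 each), and Cd36, a scavenger receptor that also takes up fatty acids into muscle, fell by 0.84. Of the 3 genes that bring the receptors to their place, Unc93b1, the chaperone of the endosomal receptors, rose from 26.8 ± 4.17 to 101 ± 29.7 CPM (log2 fold change 1.88 ± 0.25, adjusted p = 0.00433), and Hsp90b1, their folding chaperone, rose by 1.31 ± 0.27. Hsp90b1 was higher still in early Col (10U), at 1175 ± 597 CPM (n = 4), where it was not called.

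The adaptors split. Myd88 (log2 fold change 0.76 ± 0.19) and Ticam2, which links Tlr4 to Ticam1 (1.90 ± 0.55), rose at 6d, and Tirap, the bridge between Tlr2 or Tlr4 and Myd88, fell from 40.5 ± 4.68 to 18.9 ± 3.73 CPM (log2 fold change -1.12 ± 0.21, adjusted p = 0.0121). Of 13 kinases and ligases 2 rose, Irak4 (1.09 ± 0.28) and Ikbke (1.79 ± 0.52), and none fell. Irf5, a transcription factor downstream of Myd88, was the 1 of 5 factors that rose (1.74 ± 0.39). Of 7 negative regulators Tnfaip3 rose (0.67 ± 0.19) and Nfkbia fell (-0.92 ± 0.24). Among all genes 14.0% were called higher and 13.3% lower at 6d, so the counts of kinases, factors and regulators do not stand out.

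Endogenous ligands went both ways. The matrix genes Tnc (65.1 ± 45.0 to 1722 ± 561 CPM, log2 fold change 4.68 ± 0.76) and Vcan (4.0 ± 0.46) rose at 6d with Bgn, and S100a8 and S100a9, which are also neutrophil markers here, fell (-4.78 ± 1.36 and -6.86 ± 1.49). Their vehicle levels varied widely. S100a8 was at 2.53 to 6.10 CPM at 6d and 1.80 to 240 CPM in Col vehicle, so that the groups overlapped. S100a9 was at 0.993 to 2.28 CPM against 3.99 to 411 CPM. Among 7 tested targets of the pathway, Ptgs2 (3.52 ± 0.56), the chemokines Ccl2 (3.16 ± 0.74) and Cxcl10 (2.83 ± 0.79), and Il6 (3.08 ± 0.79) rose, and Nos2 fell. Il6 was at 0.516 CPM or less in every mouse at 6d. Ccl2 was the 1 listed gene of the pathway called in early Col (10U), at 30.9 ± 20.2 CPM (log2 fold change 5.94 ± 0.89, adjusted p = 0.0337), and no listed gene was called against vehicle at CFA 1d, CFA 5d, 0.2U or late Col (10U). From 6d to late Col (10U) 7 of 54 tested genes rose and 12 fell, where 13.4% of all genes were called higher and 13.0% lower, with Unc93b1, Hsp90b1, Irak4, Ikbke, Irf5 and Ptgs2 lower again and Tirap, Cd36, Nfkbia and S100a9 higher.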

How the data were processed

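MM of 31 mice was profiled by bulk RNA-seq, 1 library per mouse. From poly(A) RNA the authors prepared stranded libraries, read 50 bases from 1 end and aligned to build mm9 with TopHat2, and HTSeq is among the tools of the submitters' processing notes; versions, annotation and strand setting are not given in the sources used here. The deposited tables hold raw counts of reads per gene symbol, 1 table per library, neither normalized nor filtered, which closes with lines of unassigned reads that were left out of library sizes and tests.

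Samples were grouped by their GEO titles. A gene entered a comparison if 3 or more of its libraries had 10 or more counts, and was tested with edgeR 4.0.16 in R 4.3.3 (TMM scaling, quasi-likelihood test, group as the factor, libraries of the comparison only), and p-values were Benjamini-Hochberg adjusted over all tested genes. A gene called has an adjusted p under 0.05, SE is the log2 fold change divided by the root of F, and groups apart do not overlap in CPM. CPM values use TMM over all 31 libraries. RPKM uses exon lengths of GENCODE vM1. Labels do not say that mice of a group came from separate litters or cages. The p-values test a group difference against the variation between these mice, which edgeR estimates with information shared across genes. Among 465 pairs of libraries 0 were identical. The scripts were tested on simulated data. Full values are given for members called in a comparison and those that the paper names for it; other genes are the up to 4 called at 6d Col (10U) with the largest change in each list. The genes of like pattern are the 3 closest to each member, and those of Tlr1 are not reported here. The members and lists were chosen with earlier results of these data known.

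Alternatives were DESeq2 1.42.0, edgeR with DESeq2's size factors, testing without the low-count filter, 1 fit over all libraries, a replicate block, leaving out each mouse, a fold change over 2 with RPKM over 1, and both vehicle groups as reference. Same-numbered mice are separate animals. Their deviations correlated in each of 3 pairs for CFA 1d and CFA vehicle (r of 0.177 to 0.600), which by the rule used here counts as pairing, and in no other comparison did every pair exceed 0.1; the block changed no call of a member at CFA 1d.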

Additional observations from a re-analysis of the deposited data

Results flagged for a closer look

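Late Col (10U) mouse 4 stood above the other 3 mice of its group by more than Dixon's 95% limit in 7 members. It had 4.75 CPM of Tlr1 (the next mouse 0.646), 10.9 of Tlr2 (3.24), 13.6 of Tlr3 (9.17), 10.7 of Tlr7 (1.99), 6.11 of Tlr8 (1.35), 2.35 of Tlr9 (0.625) and 9.59 of Tlr13 (0.808). The same mouse had 775 CPM of summed macrophage markers against 115 to 206 CPM in the other 3, and 38936 CPM of muscle markers against 80322 to 101662 CPM. It also stood apart in fibroblast markers (7497 against 1745 to 2548 CPM), bone markers (227 against 50.9 to 62.2 CPM) and neutrophil markers (215 against 40.0 to 77.2 CPM). Their part in its levels was not tested.

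In 3 further groups of 4 mice 1 mouse stood apart. Tlr6 was at 0.382 CPM in RPC mouse 2 (the others from 0.990), Tlr7 at 6.37 CPM in 1C mouse 3 (the next 3.45) and Cd14 at 29.9 CPM in early Col (10U) mouse 3 (the next 12.0). In all, 10 of the 40 sets of 4 mice were found this way, where chance gives about 1 in 20, and the members of 1 mouse are not independent. Groups of 3 mice were not examined for this.

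The change of Tlr4 from vehicle differed between 6d Col (10U) and 5d post-CFA by 2.04 on the log2 scale (unadjusted p = 0.00365, adjusted p = 0.0397 with edgeR over 14892 genes). The 3 mice at 6d Col (10U) had 15.3 to 32.7 CPM against 7.05 to 16.5 CPM in vehicle, and the 3 mice at 5d post-CFA had 7.56 to 11.9 CPM against 11.6 to 26.9 CPM. The comparison was chosen after the values were seen, and 11.3% of all genes were called in it. Leaving out 1 mouse ended the call in 8 of 12 fits. Neither change from vehicle was called by itself with edgeR (adjusted p = 0.0702 at 6d Col and 0.259 at 5d post-CFA). Counting and salivary gland markers also differed between these groups, as given above, and their part was not tested.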

How the results depend on the processing

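Counts of members called by edgeR moved as follows. The shares of all genes called in these alternative fits are not reported here. At CFA 5d the 1 call became 0 with 1 fit over all 31 libraries, with both vehicle groups as reference, with the replicate block and under size factors from DESeq2, 2 with DESeq2, and 0 to 6 with each mouse left out. In early Col (10U) the 0 became 5 with 1 fit over all libraries, 8 with both vehicle groups, 6 with DESeq2, 6 with the replicate block, 8 without the 2 libraries that stand apart, and 0 to 5 with each mouse left out. The 0 at CFA 1d became 3 without 2 such libraries, and the 0 in 1C became 1 with both vehicle groups. At 6d Col (10U) the 8 became 4 with the replicate block and 3 to 9 with each mouse left out. For 6d against early Col (10U) the 2 became 1 with 1 fit over all libraries and 0 to 4 with each mouse left out. For late against 6d Col (10U) the 5 became 8 with DESeq2, 3 without the low-count filter, 9 with the replicate block and 0 to 9 with each mouse left out. The 1 call between CFA 5d and 1d ranged over 0 to 2, and the 1 call in the later difference between agents over 0 to 2 with each mouse left out and was 2 with DESeq2. The causes were not tested.

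Of 1052 log2 fold changes of members under the alternatives, 894 kept direction and side of the threshold, 74 lost and 73 gained a call, and 11 turned. They cover only the members reported for each comparison. The setting with a fold change over 2 and RPKM over 1 reuses the log2 fold changes of the main fit. It therefore could not turn or gain one. Tlr4 in 1C became -0.042 with both vehicle groups. Under the replicate block, Tlr1 and Tlr13 in late Col (10U) against vehicle became -0.35 and -1.58. Tlr3 in late against 6d Col (10U), near 0 throughout, became -0.014 in 1 fit over all libraries, -0.011 without the low-count filter and -0.17 with the replicate block. With each mouse left out, Tlr3 in that comparison ranged from -0.20 to 0.073, Tlr13 in late Col (10U) against vehicle from -1.86 to 1.66, Cd14 in 6d against early Col (10U) from -0.43 to 0.42, and the early difference of Tlr7 between agents from -0.015 to 1.43. Mice of like number are different animals, and except at CFA 1d their deviations did not correlate in every pair.

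At 10 counts, 0.344 to 0.674 CPM, the counting error is large. Vehicle mice had 6 to 16 counts of Tlr1, and vehicle mice 1 and 2 had 14 or fewer of Tlr8 and Tlr9. Groups of 3 or 4 mice with 1 mouse apart gave wide errors at CFA 1d and in late Col (10U).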
